A study of Arabidopsis thaliana with 6 samples.

Results

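The pericentromere of chromosome 3 of Arabidopsis thaliana is described here through 884 array loci of 29670 in all. They are the loci from AT3G29450 to AT3G43829 by name, and the rule leaves out AT3G30720, AT3G33520 and AT3G42670. The limits come from locus numbers and not from measured values. RNA levels were compared between plants of epiRIL12 and plants of the reference accession Col, with 3 arrays of each. Both genotypes were sampled at 14 days of age, without treatment, under a long-day light cycle, and the material is labelled as whole seedlings and also as rosette leaves. An epigenetic recombinant inbred line such as epiRIL12 is bred from Col and a plant mutant for DNA methylation. In the family of epiRIL12 the mutated gene was MET1, for the enzyme that maintains CG methylation. epiRIL12 is a single line, in which any stretch of a chromosome may come from either parent, and which parent gave each stretch of chromosome 3 is not recorded in the labels. The series title asks how lost DNA methylation affects recombination.

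The regions around plant centromeres are packed as heterochromatin. They hold few active genes among many transposable elements and their remnants, and DNA methylation with histone H3 lysine methylation keeps most of these copies silent. CG methylation is copied at each replication by MET1, and a copy that lost it can stay active for generations. The gene table used here puts transposable-element loci, and also decayed copies of ordinary genes, into pseudogene classes. It classed 703 of the 884 members as pseudogenes (called pseudogene-class here), 177 as protein-coding and 1 as a long non-coding RNA, and 3 had no match. Only 35 members carry a gene symbol, so most are named by locus alone and their element families are not given.

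The array levels showed a stretch that was mostly dim in both genotypes. The array medians of the 703 pseudogene-class members were 4.15 to 4.34 on the log2 scale in epiRIL12 and 4.20 to 4.30 in Col. The 177 protein-coding members had array medians of 5.11 to 5.20 in epiRIL12 and 5.12 to 5.35 in Col. Over all loci the array medians were 6.80 to 6.84 and the lower quartiles 4.71 to 4.90. In Col, 58 of the 884 members lay above the median of all loci, of which 47 were protein-coding and 11 pseudogene-class, and 597 lay below the lower quartile. The arrays came without a background level, so a fold at a dim locus is a distance between array values and need not equal a ratio of RNA amounts.

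The 6 leaf markers, such as RBCS1A, had means of 14.2 to 15.4 in epiRIL12 and 14.2 to 15.4 in Col. The 13 root, pollen and seed markers had means of 4.28 to 9.20 in epiRIL12 and 4.46 to 9.10 in Col. None of the marker genes was called between genotypes, and levels of different probes are not on a common scale, so these values do not settle the tissue. Both arrays numbered 3 had a slightly wider spread over loci, with SDs of 2.40 in epiRIL12 and 2.37 in Col, against 2.32 on the other arrays. Nothing in the labels says that the samples of a genotype were grown separately, so the p-values rest on the spread among these samples, which may be technical. In RNA of a whole tissue, more cells with an active locus and more RNA per cell cannot be told apart.

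Of the 884 members, 28 rose in epiRIL12, 2 fell and 854 were not called (limma over all loci, Benjamini-Hochberg adjusted p under 0.05). All 28 rises were pseudogene-class. None of the 177 protein-coding members rose and 1 fell, LCR30, a gene for a defensin-like secreted peptide. Rises thus made up 3.17% of the members, against 0.890% of all loci, and falls were 2 of 884, against 0.0843% of all loci. Within the pseudogene class the comparison ran the other way, with 3.98% of members rising against 5.72% of all such loci, and 1 of 703 falling against 0.145%. Of the 237 rises behind the 5.72%, 95 lay in the pericentromere of chromosome 2, where 14.7% of 648 such loci rose. How far that region alone sets the difference was not tested. The protein-coding background was 0.107% for rises and 0.0715% for falls. The number of rises depended on single arrays: it was 16 without Col replicate 1 (0.728% of all loci rose there), 16 without Col replicate 3 (0.694%), 18 without epiRIL12 replicate 2 (0.725%) and 14 without epiRIL12 replicate 3 (0.664%). Without epiRIL12 replicate 3 the member rises were thus 14 of the 28, while rises over all loci numbered 197, against 264 with all arrays. Without both arrays numbered 3 there were 10 rises (0.475% of all loci) and 1 fall, and without epiRIL12 replicate 1 there was also 1 fall. The 2 falls lost their call with the ordinary equal-variance test, which kept 9 rises (0.415% of all loci).

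**Figure D1:**
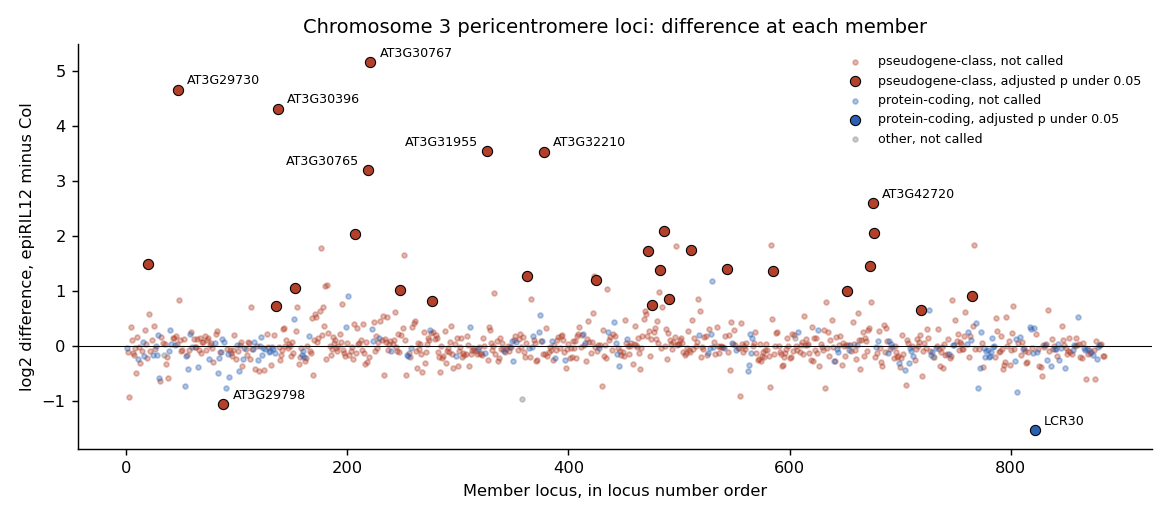
Each point is a member locus, placed by its rank in locus number (x) and by its log2 difference, epiRIL12 minus Col (y); large outlined points had an adjusted p under 0.05. The 28 rises are all pseudogene-class and run from 0.65 to 5.16, while most of the 884 members lie close to 0.

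The rises ranged from 0.65 to 5.16 on the log2 scale, with a median of 1.43 (2.70-fold). Of the 28, 6 were at least 8-fold, 10 at least 4-fold, 22 at least 2-fold and 6 below that. All 28 had a mean Col level below the median of all loci (6.79), and 7 lay below the lower quartile (4.82). Of all 703 pseudogene-class members, only 11 lay above that median in Col, and 524 lay below that quartile. In epiRIL12, 15 of the 28 stood above the median of all loci there (6.82). The median level of the 28 was 6.99 in epiRIL12 and 5.28 in Col. Rises elsewhere on the arrays had a median of 2.49 over 236 loci. That gap in size was not tested.

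The largest rise was at AT3G30767, a pseudogene locus. Its levels were 11.36, 11.49 and 11.78 on the epiRIL12 arrays, against 6.34, 6.51 and 6.32 on the Col arrays. The log2 difference was 5.16 (SE 0.13, 35.6-fold, limma adjusted p = 1.46e-05), with tight and widely separated groups. The locus 2 places before it in the order, AT3G30765, read 7.40, 7.82 and 7.85 in epiRIL12 and 3.60, 4.62 and 5.27 in Col. It rose by 3.19 (SE 0.40, limma adjusted p = 0.0169). The Col arrays of AT3G30765 were spread over more than the epiRIL12 arrays, and its call was lost with any of 4 single arrays left out (largest adjusted p 0.259 over the alternatives). Between them AT3G30766 stood at 2.93 ± 0.21 (SD, n = 3) in epiRIL12 and 3.13 ± 0.26 in Col, a difference of -0.20. The loci on the outer sides of the trio, AT3G30764 and the protein-coding AT3G30770, had -0.30 and 0.30 and were not called.

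AT3G29730, near the low-numbered end, read 9.72, 9.72 and 9.97 in epiRIL12 and 5.61, 4.96 and 4.88 in Col. Its rise was 25.2-fold (log2 4.66, SE 0.21, limma adjusted p = 9.87e-05). The next locus, AT3G29732, had 0.84 (SE 0.14) and missed the call (limma adjusted p = 0.0633), and the one before, AT3G29727, had 0.04. AT3G30396 read 10.16, 10.33 and 10.34 in epiRIL12, against 6.19, 5.68 and 6.02 in Col. The difference of 4.31 (19.9-fold, SE 0.15) passed with a limma adjusted p of 3.84e-05, and every epiRIL12 value was far above every Col value. Its neighbour AT3G30393 also rose: 4.47, 4.37 and 4.46 in epiRIL12 and 3.74, 3.74 and 3.63 in Col (log2 0.73, SE 0.09, limma adjusted p = 0.0132). All 6 of those values lay below the lower quartile of all loci, and the call was lost with any of 5 single arrays left out (largest adjusted p 0.291 over the alternatives). On the other side of AT3G30396, AT3G30400 had -0.02.

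AT3G31955 and AT3G32210 rose by nearly the same amount. AT3G31955 read 8.95, 8.74 and 9.13 in epiRIL12 and 5.22, 5.78 and 5.22 in Col (log2 3.54, SE 0.19, limma adjusted p = 0.000201). AT3G32210 read 9.36, 8.69 and 9.28 in epiRIL12 and 5.87, 5.49 and 5.38 in Col (log2 3.53, SE 0.22, limma adjusted p = 0.000423). Both are 11.6-fold rises with no overlap between genotypes. The neighbours AT3G31950, which is protein-coding, and AT3G31960 stood at -0.12 and -0.25, and those of AT3G32210, AT3G32205 and AT3G32220, at -0.15 and -0.16. AT3G30744 read 7.86, 7.85 and 8.10 in epiRIL12 and 5.98, 5.71 and 6.02 in Col. It rose by 2.03 (SE 0.13, limma adjusted p = 0.000462) and was the smallest of the 6 rises that held their call in every alternative run; the others were AT3G30767, AT3G29730, AT3G30396, AT3G31955 and AT3G32210.

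On the high-numbered side, AT3G42718, AT3G42720 and AT3G42721 rose within a run of 4 loci. AT3G42720 had 8.16, 8.07 and 7.94 in epiRIL12 and 5.66, 5.75 and 4.96 in Col (log2 2.60, SE 0.22, limma adjusted p = 0.00212). AT3G42721 had 6.33, 5.35 and 6.46 in epiRIL12 and 3.88, 3.97 and 4.13 in Col (log2 2.05, SE 0.29, limma adjusted p = 0.0283). Here epiRIL12 replicate 2 was lower than the other epiRIL12 arrays, and the call was lost with any of 5 single arrays left out (largest adjusted p 0.421 over the alternatives). AT3G42718 had 7.25, 7.58 and 7.58 in epiRIL12 and 6.27, 5.73 and 6.02 in Col (log2 1.46, SE 0.17, limma adjusted p = 0.0104). Its call was lost with any of 3 single arrays left out, with the ordinary test and with the authors' p-values (largest adjusted p 0.250 over the alternatives). AT3G42719, inside the run, had 5.06 ± 0.36 (SD, n = 3) in epiRIL12 and 4.25 ± 0.47 in Col and was not called (log2 0.80, limma adjusted p = 0.577). AT3G42717 before the run and AT3G42722 after it stood at 0.33 and -0.19.

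A looser group of rises lay between AT3G33067 and AT3G33166. AT3G33091 read 7.35, 7.16 and 6.76 in epiRIL12 and 4.92, 5.18 and 4.87 in Col (4.28-fold, SE 0.17 on the log2 scale, limma adjusted p = 0.00212). AT3G33067 read 7.10, 7.66 and 7.37 in epiRIL12 and 5.63, 5.63 and 5.69 in Col (log2 1.73, SE 0.15, limma adjusted p = 0.00266). AT3G33166 read 6.09, 6.11 and 6.06 in epiRIL12 and 4.52, 4.35 and 4.17 in Col (log2 1.74, SE 0.11, limma adjusted p = 0.000565). In each the epiRIL12 arrays lay clear of the Col arrays, and each call held with any single array left out. AT3G33072, AT3G33082 and AT3G33109, in the same group, rose by 0.75, 1.37 and 0.86, and these calls were lost with at least 4 of the 6 single arrays left out. None of these loci was a direct neighbour of another in the order, and the loci beside AT3G33067, AT3G33091 and AT3G33166 ran from -0.11 to 0.71 without a call.

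**Figure D2:**
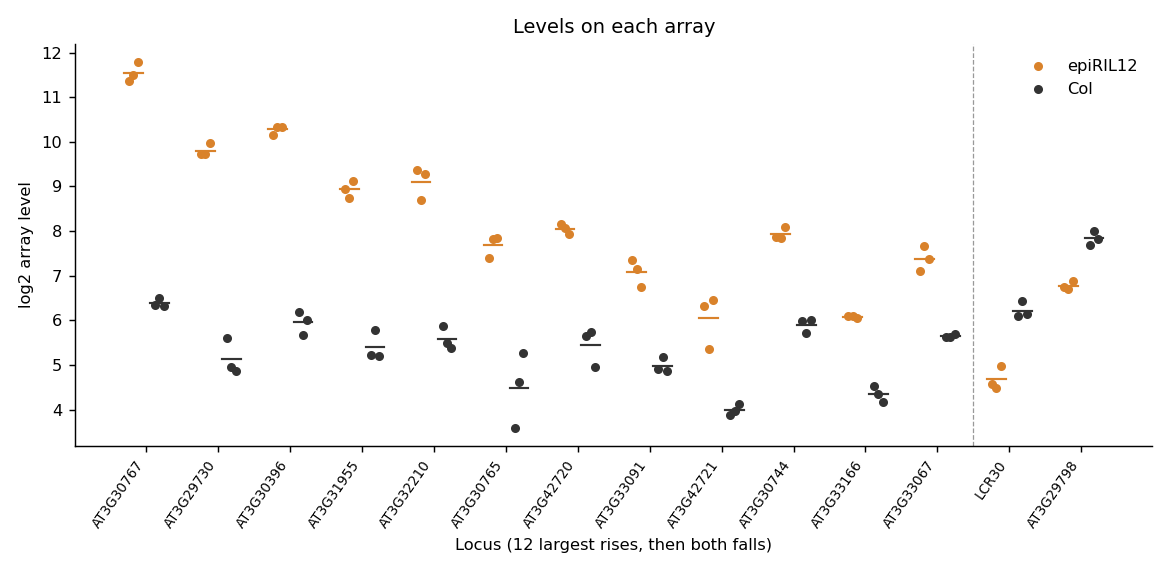
Points are the log2 levels on the 3 epiRIL12 arrays (left of each pair, orange) and the 3 Col arrays (right, black), and short lines are means, for the 12 largest rises and both falls. The epiRIL12 and Col points of each locus do not overlap, and AT3G30765 in Col and AT3G42721 in epiRIL12 show the widest scatter.

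The other 16 rises were smaller, from 0.65 to 1.49 on the log2 scale (SE 0.09 to 0.20, limma adjusted p 0.00805 to 0.0473). Their means were 4.43 to 7.47 in epiRIL12 and 3.70 to 6.01 in Col. Beside those already named, AT3G29612 rose by 1.49, AT3G38525 by 1.40, AT3G42253 by 1.36, AT3G32118 by 1.28 and AT3G32893 by 1.19. AT3G30465, AT3G30834 and AT3G42624 rose by 1.06, 1.02 and 1.00. Below 2-fold stood AT3G43154 (0.90), AT3G31356 (0.82) and AT3G42916 (0.65). Of all 28 rises, 11 held their call with any single array left out, and AT3G38525 and AT3G42916 lost theirs with each of the 6. None of the 28 changed sign in any alternative. All epiRIL12 arrays lay above all Col arrays at each of them, so leaving out arrays could not reverse a sign.

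Of the 28 rises, 4 had a rising direct neighbour in the locus order: the pair AT3G30393 and AT3G30396 and the pair AT3G42720 and AT3G42721. Both pairs rest on a call lost with 5 of the 6 single arrays left out, that of AT3G30393 and that of AT3G42721, and without Col replicate 1 neither pair remained. Rising neighbours were not counted for the rises elsewhere on the arrays, so whether 4 of 28 is few or many was not tested. The 12 largest rises had 21 uncalled places beside them, with log2 differences of -0.30 to 0.84. No called member overlapped another gene in the annotation. Probe sequences were not used here, and the labelled target was double-stranded, so signal shared between copies of a repeat and signal from either strand cannot be told apart at any of these loci.

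A further 10 members were at least 2-fold higher in epiRIL12 without being called (log2 1.03 to 1.83, limma adjusted p 0.0672 to 0.801), and 9 of them were pseudogene-class. Called or not, 32 of 884 members were at least 2-fold higher, against 339 of all 29670 loci. In the pseudogene class these were 31 of 703 members, against 294 of all 4145 such loci. AT3G43157, picked after its values were seen, had 7.65, 6.25 and 6.67 in epiRIL12 and 4.98, 5.14 and 4.96 in Col (log2 1.83, SE 0.34, limma adjusted p = 0.0999). AT3G33127, picked likewise, had 6.63, 7.02 and 7.04 in epiRIL12 and 5.54, 5.38 and 4.34 in Col (log2 1.81, SE 0.32, limma adjusted p = 0.0843). Neither locus has overlapping groups, and in each 1 array lay apart from its own group. At an adjusted p under 0.10 the members had 34 rises, all pseudogene-class, and 1.03% of all loci rose at that limit.

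The members as a whole were centred near 0. The median log2 difference was -0.01 over the 884 members and -0.02 over all loci. All 3 epiRIL12 arrays lay above all 3 Col arrays at 78 members (8.82%), against 5.19% of all loci. For pseudogene-class members this was 75 of 703 (10.7%), against 14.8% of all pseudogene-class loci. That background holds the chromosome 2 pericentromere, where it was 174 of 648 (26.9%). In the opposite direction the groups did not overlap at 56 members (6.33%), against 6.89% of all loci, and at 46 pseudogene-class members (6.54%), against 5.60% of all such loci. At an unadjusted p under 0.05, 79 members were higher and 34 lower in epiRIL12, against 3.32% and 3.72% of all loci.

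Rises were found in all 5 stretches into which the locus numbers were divided. Of the pseudogene-class loci, 5 of 108 rose from AT3G29450 to AT3G30499 (4.63%), 6 of 157 from AT3G30500 to AT3G31999 (3.82%) and 10 of 184 from AT3G32000 to AT3G40999 (5.43%). On the high-numbered side 1 of 75 rose from AT3G41000 to AT3G42499 (1.33%) and 6 of 179 from AT3G42500 to AT3G43829 (3.35%). The 1 rise was AT3G42253, and its call was lost without Col replicate 3, without epiRIL12 replicate 3, with the ordinary test and with the authors' p-values (largest adjusted p 0.245 over the alternatives). All 6 rises of 8-fold or more lay below AT3G32300. All epiRIL12 arrays lay above all Col arrays at 10 of 156, 21 of 175, 26 of 215, 5 of 85 and 16 of 253 loci of the 5 stretches, in the order of their locus numbers (5.19% of all loci). They lay below at 16, 13, 4, 5 and 18 of the same loci (6.89% of all loci), so loci above outnumbered those below in the second and the third stretch and not in the others. Within the pseudogene class, 9.26%, 12.7%, 13.6%, 6.67% and 8.38% lay above. Each was less than the 14.8% of all pseudogene-class loci, which include the chromosome 2 pericentromere (26.9%). In the same order 9.26%, 8.28%, 2.17%, 6.67% and 7.82% lay below, against 5.60% of all pseudogene-class loci. The differences between stretches were not tested.

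No rise was found among the loci just outside the members. None of 391 loci in the flanks, from AT3G28000 to AT3G29449 and from AT3G43830 to AT3G45500, rose or fell, but these held only 83 pseudogene-class loci. Of all loci 0.890% rose and 0.0843% fell, and of all pseudogene-class loci 5.72% rose and 0.145% fell. Whether the rises end at the limits of the members was not tested. At an unadjusted p under 0.05, 7 flank loci were higher (1.79%) and 14 lower (3.58%) in epiRIL12, against 3.32% and 3.72% of all loci. The last loci inside the limits had log2 differences of -0.04 (AT3G29450), -0.12 (AT3G29460), -0.18 (AT3G43826) and -0.18 (AT3G43828). Just outside stood AT3G29440 with -0.60, AT3G29430 with -0.18, AT3G43830 with -0.11 and AT3G43832 with -0.04. None of these 8 was called. The members were 14.6% of the 6039 chromosome 3 loci and held 28 of its 34 rises and 2 of its 5 falls. They also held most of its pseudogene-class loci. Of these, 28 of 703 rose among the members (3.98%) and 2 of 252 elsewhere on the chromosome (0.794%).

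Pericentromeres of the other chromosomes were taken as ranges of locus numbers for comparison. Of pseudogene-class loci, 3.98% of the chromosome 3 members rose, against 3.18% on chromosome 1 (13 of 409), 14.7% on chromosome 2 (95 of 648), 5.50% on chromosome 4 (31 of 564) and 5.04% on chromosome 5 (31 of 615). The median rise was 1.43 among the members, against 2.00, 2.69, 2.42 and 2.35 in those 4 regions. Protein-coding rises numbered 0 of 177 among the members, 0 of 226 on chromosome 1, 11 of 264 on chromosome 2, 0 of 329 on chromosome 4 and 0 of 229 on chromosome 5. The differences between the regions were not tested.

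**Figure D3:**
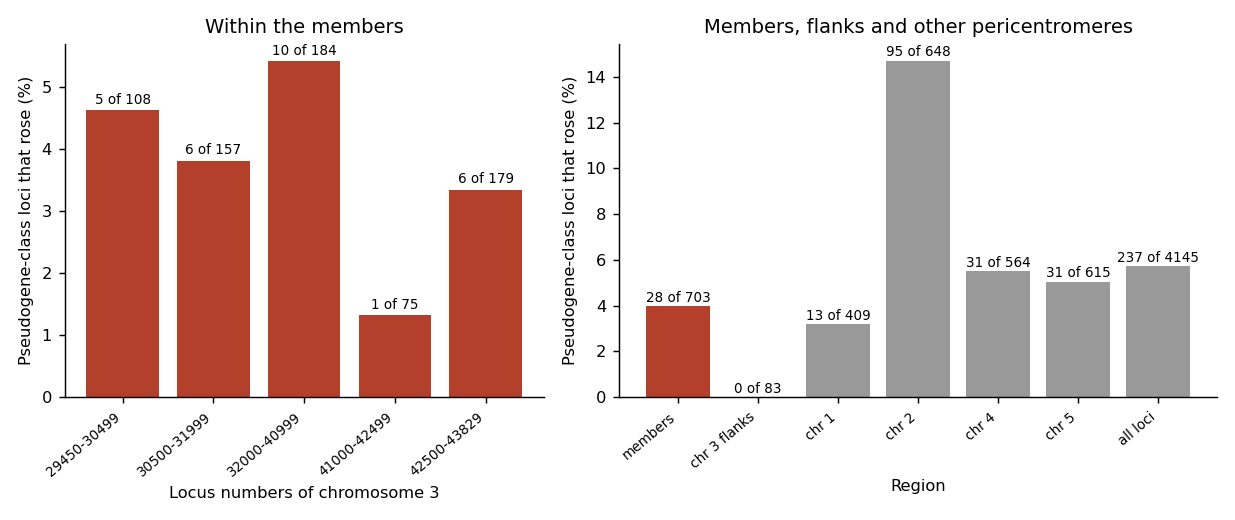
Bars give the percentage of pseudogene-class loci that rose in epiRIL12 (limma adjusted p under 0.05), by stretch of locus numbers within the members (left) and for the members, their flanks, 4 other pericentromeres and all loci (right), with counts above the bars. The members stand at 3.98%, chromosome 2 at 14.7% and all pseudogene-class loci at 5.72%.

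Both falls were single loci. LCR30 (AT3G43505) read 4.59, 4.49 and 4.97 in epiRIL12, against 6.09, 6.43 and 6.14 in Col. It fell by 1.54 on the log2 scale (SE 0.16, 2.90-fold, limma adjusted p = 0.00705), to a mean level below the lower quartile of all loci. Its neighbours AT3G43500 and AT3G43510 had 0.33 and 0.21. The pseudogene AT3G29798 read 6.75, 6.70 and 6.89 in epiRIL12 and 7.69, 8.00 and 7.82 in Col (log2 -1.06, SE 0.12, limma adjusted p = 0.00855). Its neighbours AT3G29797 and AT3G29800 are protein-coding and had 0.13 and 0.07. In both falls all epiRIL12 values lay below all Col values. The other defensin-like genes with a symbol among the members, LCR33 and LCR47, had log2 differences of -0.14 and 0.29 and were not called.

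Known genes of the region had no called difference between genotypes. Of a list of 22 known protein-coding genes, 21 were measured and none was called. Their log2 differences ran from -0.45 to 0.25 with a median of -0.05, against -0.02 over all loci, and 1 of 21 was below an unadjusted p of 0.05. That gene was BR6OX2, for a cytochrome P450 of the last steps of brassinosteroid synthesis, at 7.23 ± 0.07 (SD, n = 3) in epiRIL12 and 7.69 ± 0.15 in Col (log2 -0.45, SE 0.11, limma adjusted p = 0.247).

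Among metabolic enzymes of the list, ERD5, the proline dehydrogenase that starts proline breakdown, stood at 8.56 ± 0.08 (SD, n = 3) in epiRIL12 and 8.46 ± 0.03 in Col. SUS4, a sucrose synthase, stood at 5.92 ± 0.15 in epiRIL12 and 5.67 ± 0.33 in Col. For both, the difference (0.10 and 0.25) was within 2 standard errors. The aldehyde oxidase gene AAO2 had -0.25 (SE 0.11), the malonyltransferase genes 5MAT and PMAT2, which act on anthocyanins and phenolic glucosides, had -0.19 and -0.09, and the glutathione transferase gene GSTU27 had -0.01. AT3G43270, without a symbol in the gene table, had -0.11.

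Membrane and trafficking genes of the list were not called either. The plasma membrane proton pump gene AHA8 had a log2 difference of 0.02, the transporter gene ZIFL2 -0.24, the guanine nucleotide exchange factor gene BEN1, which acts in vesicle traffic, 0.0011, the phosphoinositide phosphatase gene SAC3 -0.20 and the lipid transfer protein gene LTPG2 -0.05. Among regulators, AL3 had -0.02, MYB121 -0.04, AT3G43240 -0.08, JAZ11, a repressor in jasmonate signalling, -0.06, BPM6, a ubiquitin ligase adaptor, -0.05 and the calmodulin gene CAM7 0.03. TES, a kinesin gene needed for cell division after male meiosis, had -0.03. None of these genes was called, and the standard errors ran from 0.08 to 0.25 over the list.

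**Figure D4:**
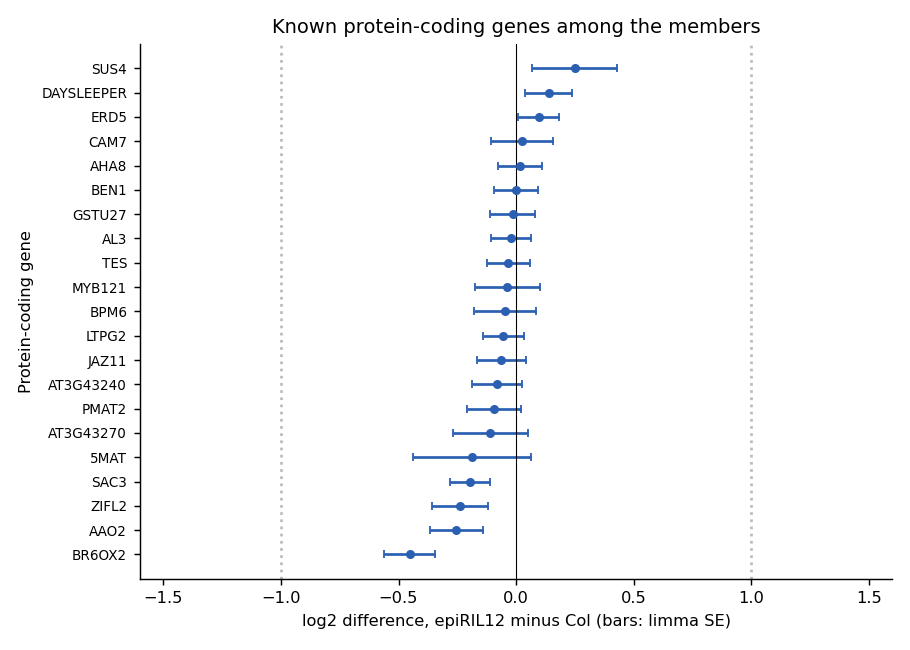
Points are log2 differences, epiRIL12 minus Col, of the 21 measured known protein-coding members, with limma standard errors as bars and dotted lines at a 2-fold change. All lie between -0.45 and 0.25.

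Members with transposon-derived names were also uncalled. DAYSLEEPER, a host gene made from an hAT transposase and needed for normal growth, stood at 9.20 ± 0.13 (SD, n = 3) in epiRIL12 and 9.07 ± 0.05 in Col (log2 0.14, SE 0.10). SADHU3-2 (AT3G42658), of the Sadhu family of retroposons, stood at 4.16 ± 0.20 in epiRIL12 and 4.41 ± 0.23 in Col (log2 -0.24, SE 0.16, limma adjusted p = 0.889). Its level lay below the lower quartile of all loci in both genotypes. Beside LCR30, 8 protein-coding members were below an unadjusted p of 0.05 and none of them was called. With LCR30 counted, 2 of 177 were higher (1.13%) and 7 lower (3.95%), near the 1.61% and 3.71% of all protein-coding loci. The 8 include BR6OX2 and, picked after their values were seen, COBL2, a COBRA-like gene, at 6.30 ± 0.31 in epiRIL12 and 7.06 ± 0.06 in Col (log2 -0.76, SE 0.16, limma adjusted p = 0.186) and MEE38 at 0.42 (SE 0.09, limma adjusted p = 0.184).

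The silencing genes that act on such regions showed no called difference. Of 15 listed, among them MET1, the chromatin remodeller gene DDM1, the chromomethylase genes CMT2 and CMT3, the deacetylase gene HDA6 and MOM1, 0 rose and 0 fell (limma), and 1 was below an unadjusted p of 0.05. That was NRPE1, a subunit gene of RNA polymerase V, which stood lower by 0.86 on the log2 scale (difference -0.86, SE 0.16) and missed the call (limma adjusted p = 0.0956). The median difference of the list was 0.0014, against -0.02 over all loci.

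In the authors' deposited table, all 30 called members had a difference of the same sign and an unadjusted p under 0.05, at most 0.0239. That table rests on the same 6 arrays, and its sign was set from the differences given here, so the match is not independent evidence. The differences in the authors' deposited table were within 0.387 of those given here, with a median gap of 0.0777. After adjustment over all loci, the p-values of the authors' deposited table called 8 rises, all among the 28 (0.415% of all loci rose there). The 1 fall they called, the pseudogene AT3G29641 (log2 -0.57, adjusted p = 0.0184 in the authors' deposited table), was not called by limma (log2 -0.64, adjusted p = 0.254).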

How the data were processed

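Total RNA was depleted of rRNA and hybridised to 6 Affymetrix arrays, per the labels' protocols, and the authors deposited a log2 level per array for each locus. For their background correction, normalization and probe build, the sources used here give no statement. The authors also deposited a table of log2 differences and unadjusted p-values, from a test they do not name. That table names the loci and was joined to the values by position (Pearson's r of the differences over loci 0.967, and 0.166 when shifted by 1 place), which also set the sign of its differences as epiRIL12 minus Col.

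All 29670 loci entered a two-sided fit of genotype alone by limma 3.58.1 (lmFit, eBayes, no filter on signal; R 4.3.3), adjusted by Benjamini-Hochberg and called at an adjusted p under 0.05. Errors of differences are limma's standard errors. On simulated data for this comparison with 29670 loci and 200 changed, limma recovered 55.2% of changes of 1 on the log2 scale, 95.5% of 2 and 98.5% of 4, with 11 false among 177 calls. The simulated noise did not depend on signal level and held no effect shared between arrays. Changes were placed at random over all loci, so these rates need not hold at the mostly dim members. Classes and symbols came from the RefSeq table of assembly TAIR10.1, which matched 881 members; no coordinates are given.

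Named genes were the called members, 12 of the rises and all falls with every array's value, the neighbours of those 12, the loci at both ends and the gene lists. Every array's value is also given for AT3G30393, AT3G42718, AT3G43157 and AT3G33127, which were chosen after their values were seen. The members, lists and ranges were chosen with earlier results of these data known. AFP3 was not measured. The number of arrays limits the precision. Python 3.11.15, pandas 2.3.3, numpy 2.4.6 and matplotlib 3.10.9 were used. The alternatives were a replicate block, quantile normalization, median centring, signal filters, other variance models, other limits, leaving out arrays and the authors' p-values.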

Additional observations from a re-analysis of the deposited data

How the results depend on the processing

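Member rises and falls numbered 28 and 2. Rises were 11 with the replicate block (0.664% of all loci, 197 against 264 in the main fit). With the lower 50% of loci by mean signal left out they were 6 (65 members tested, 0.62% of the loci tested). They were 9 with the ordinary equal-variance test (0.415%) and 10 without both arrays numbered 3 (0.475%). The authors' deposited p-values gave 8 (0.415%), and an adjusted p under 0.01 gave 13 (0.62%). The filters used the mean over all 6 arrays, and all 28 rises had a mean Col level below the median of all loci. Rises kept by the 50% filter passed it through their epiRIL12 levels, so it is no check on them. The other normalizations, the trended fit, the 25% filter (296 members tested) and the limit of 0.10 gave 25 to 34. In these runs 0.88% to 1.2% of the loci tested rose. The 25 rises of the trended fit held 22 of the 28 and none of the 6 that were below 2-fold. Falls were 0 with the replicate block, 0 with the ordinary test, 1 with the 50% filter, 1 without both arrays numbered 3 and 1 by the authors' p-values. With 1 array left out at a time there were 14 to 19 rises and 1 to 2 falls, and over all loci 0.664% to 0.741% rose. No alternative called a protein-coding rise, none of the 30 called members changed sign, and all 11 rises called with the block were among the 28. The groups of these 30 members do not overlap, so leaving out arrays could not change a sign. The block, the filters, the variance models and the limits keep the same difference, so they could not change it either. Beyond the smaller number of loci or arrays, the cause of the lower counts was not tested. Deviations of same-numbered arrays correlated at -0.04, -0.07 and 0.13, and both arrays numbered 3 also had a wider spread over loci. The main fit did not pair samples by number, and whether a number marks a shared batch was not tested. In Col, 597 of 884 members lay below the lower quartile of all loci, and how far low signal limits the calls was not tested.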
